A study of Homo sapiens with 5 samples.

Results

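miR-132 and miR-212 form a cluster of neighbouring microRNA hairpins on human chromosome 17 that give 4 mature miRNAs, one from each arm: hsa-miR-132-3p, hsa-miR-132-5p, hsa-miR-212-3p and hsa-miR-212-5p, written below without the species prefix. The 4 rows were picked by name from 2565 human miRNA rows of the deposited count tables, because earlier results of these data showed miR-132-3p higher in detached than in attached cells. That difference is therefore described here and not tested. All 4 passed the filter on low counts, as did 697 of the 2565 human rows. Levels are in CPM, the counts of a row per 1000000 human miRNA counts of its library.

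Small RNAs were sequenced from MCF10A, a non-tumorigenic line of immortalized epithelial cells from the human breast. The detached group held 2 libraries, from cells kept for 24 h on dishes covered with 2% poly-HEMA, a coating that prevents adhesion, and the attached group held 3 libraries, from cells on uncoated plastic. The time label reads 24 h for detached and 0 h for attached libraries, while the design text states 24 h for both groups, so the age of the attached cultures is not settled. All groups shared a medium with horse serum (5%), epidermal growth factor (20 ng/ml), insulin, hydrocortisone and cholera toxin (1 ng/ml), a toxin that keeps the stimulatory G protein active and so raises cyclic AMP. RNAs of 18 to 24 nt were size-selected from 50 µg of total RNA. Whether the replicates were separate cultures is not stated, so the spread between them may be technical.

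Human miRNAs totalled 15793173 and 10533740 counts in detached replicates 1 and 2, and 12153778, 8805009 and 10321861 counts in attached replicates 1, 2 and 3. Attached replicate 2 stood apart: across the 697 miRNAs, its Spearman correlation with each other library was 0.812 to 0.857, while the remaining pairs of libraries reached 0.927 to 0.961. Values without it are given beside the results it moved most, as comparisons added after the data were seen. The epithelial label fitted the levels of 5 epithelial miRNAs, miR-200c-3p, miR-141-3p, miR-205-5p, miR-203a-3p and miR-31-5p, which summed to 86103 to 120339 CPM in detached and 41609 to 96938 CPM in attached libraries, the lowest in attached replicate 2. Without that library the attached sums were 91481 to 96938 CPM. Most of each sum came from miR-205-5p, miR-141-3p and miR-200c-3p. By contrast, miR-203a-3p had 121 and 47.9 CPM in detached and 6.42, 6.93 and 7.27 CPM in attached libraries.

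miR-132 and miR-212 are best known from neurons. Their shared primary transcript is induced there by CREB, the transcription factor that responds to cyclic AMP and calcium, through cyclic AMP response elements, and the 3p arms repress the mRNA of ARHGAP32, a GTPase-activating protein that limits dendrite growth. In endothelium miR-132 represses RASA1, a brake on Ras. A mouse knockout of the cluster was reported with impaired outgrowth of mammary ducts and a role in the stroma.

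The mature sequences carry the main relation among the members, and are shown with the seed, bases 2 to 8 counted from the 5′ end, in capitals. They come from RefSeq on GRCh38.p14, and all 4 names matched.
miR-132-3p: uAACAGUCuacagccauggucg
miR-212-3p: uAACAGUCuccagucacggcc
miR-132-5p: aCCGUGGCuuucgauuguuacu
miR-212-5p: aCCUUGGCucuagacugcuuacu
The 3p arms share the seed AACAGUC, and among 2370 human mature miRNA names searched no other had it. They match at 17 of 21 aligned bases, and the changes from miR-132-3p to miR-212-3p, numbered from the 5′ end, are A10C, C14U, U17C and U20C. The 5p arms match at 14 of 22 bases, and the change G4U falls inside the seed, so their seeds differ. Both pairs were compared position by position from the 5′ end, without gaps. Each 5p seed was unique among the names searched. Among the names searched, the closest other mature sequence of every member was the same arm of its partner, at 5 edits. Edits include inserted and deleted bases, unlike the comparison by position. Other named rows of the count tables were not searched, so reads counted under them by mistake cannot be judged.

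The hairpins show where both arms sit, with the mature arms in capitals, 5p first and 3p second.
MIR132: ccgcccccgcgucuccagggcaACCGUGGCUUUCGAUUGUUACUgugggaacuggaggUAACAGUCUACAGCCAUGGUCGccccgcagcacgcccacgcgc
MIR212: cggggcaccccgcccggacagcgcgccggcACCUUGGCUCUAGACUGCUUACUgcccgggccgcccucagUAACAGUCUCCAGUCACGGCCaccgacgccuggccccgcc
MIR132 lies at chr17:2049908-2050008 and MIR212 at chr17:2050271-2050380, both on the minus strand, with 262 bases between them. Between the arms are 14 nt in MIR132 and 17 nt in MIR212. In GENCODE 29, on the same assembly, neither hairpin overlaps another annotated gene. The nearest are HIC1, a transcriptional repressor gene on the plus strand, 3773 bases from MIR212, and the long noncoding RNA AC090617.5, 4939 bases from MIR132.

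miR-132-3p, the arm most studied as a repressor, measured 54.6 and 142 CPM in detached replicates 1 and 2, against 11.0, 5.11 and 32.0 CPM in attached replicates 1, 2 and 3. The raw counts behind these values were 863 and 1492 in detached and 134, 45 and 330 in attached libraries. Both detached libraries lay above all 3 attached ones, yet the libraries of a group were far apart: the highest detached value was 2.59 times the lowest, and the highest attached value 6.26 times the lowest, which came from attached replicate 2, or 2.90 times without that library. The means were 98.1 ± 61.5 CPM in detached (SD, n = 2) and 16.0 ± 14.1 CPM in attached cells (SD, n = 3), a ratio of 6.12. The fitted log2 fold change was 2.61 (SE 0.92), against a median of 0.20 over the 697 miRNAs.

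miR-132-5p, cut from the other side of the same hairpin, measured 19.4 and 21.5 CPM in detached libraries, against 23.4, 20.3 and 28.3 CPM in attached libraries. The groups overlapped, and the means were 20.5 ± 1.54 CPM in detached (SD, n = 2) and 24.0 ± 4.01 CPM in attached cells (SD, n = 3), with a log2 fold change of -0.23 (SE 0.60). With TMM factors, which scale libraries so that most miRNAs are level, both detached values lay below all attached ones and the log2 fold change was -0.48. Over the 5 libraries the highest level of miR-132-5p was 1.46 times the lowest, the 20th smallest such ratio of 656 tested miRNAs with a count in every library, whose median was 4.21. For miR-132-3p it was 27.7, in position 613, with its lowest value in attached replicate 2. Without that library, among 693 miRNAs with a median ratio of 2.29, miR-132-3p had a ratio of 12.8, in position 655, and miR-132-5p one of 1.46, in position 74. One hairpin thus gave an arm that was nearly level in CPM and an arm that varied widely between libraries.

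miR-212-3p, which has the same seed as miR-132-3p, was scarce, with 3.61 and 4.65 CPM in detached libraries against 1.48, 3.29 and 2.81 CPM in attached libraries. Both detached values lay above the attached ones, but with TMM factors the groups overlapped. The counts were 57 and 49 in detached and 18, 29 and 29 in attached libraries, and the log2 fold change was 0.71 (SE 0.64). miR-212-5p was scarcer still, with 1.27 and 1.04 CPM in detached libraries against 1.07, 4.20 and 1.55 CPM in attached libraries. The groups overlapped, and the highest value, from 37 counts, belonged to attached replicate 2. Its log2 fold change was -0.96 (SE 0.79), and -0.17 (SE 0.57) without that library. The floor of 3 counts corresponds to 0.190 to 0.341 CPM, so all 4 arms were detected in every library.

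**Figure D1:**
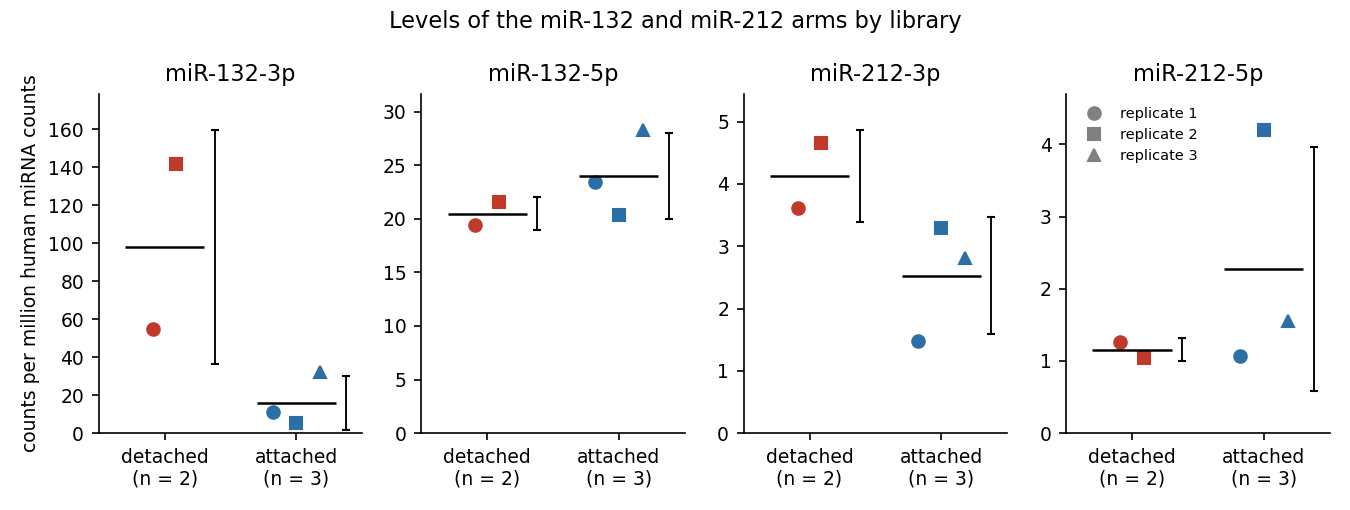
Each panel plots 1 arm, with the level in CPM on a linear axis from 0, detached libraries in red on the left and attached libraries in blue on the right. Marker shapes give the replicate number, horizontal lines the group means and bars ± 1 SD. miR-132-3p lies at 54.6 and 142 CPM in detached libraries and at 32.0 CPM or less in attached ones, while miR-132-5p stays between 19.4 and 28.3 CPM in all 5.

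By edgeR's quasi-likelihood test over 697 miRNAs, 0 of the 4 arms were called at adjusted p under 0.05, and the background was 0% of all tested miRNAs called higher and 0% called lower. At unadjusted p under 0.05 the test held 39 miRNAs higher and 7 lower, 1 of the 39 being an arm of the cluster. This split depended on the scaling, with 33 higher and 16 lower with TMM factors, and 41 higher and 37 lower by DESeq2 over 1916 miRNAs. DESeq2, limma-voom and edgeR without attached replicate 2 also called 0 of the 4 arms. Libraries that did not overlap, higher in detached, were seen for 2 of 4 arms and for 18.1% of the 697 miRNAs, and lower for 0 of 4 and for 8.75%. The members were chosen on this contrast, so nothing is read from these counts. In the authors' deposited table the log2 fold changes were 2.01 for miR-132-3p, -0.45 for miR-132-5p, 0.37 for miR-212-3p and -1.02 for miR-212-5p, with adjusted p-values of 0.608 for miR-132-3p and 0.998 for the other 3.

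Single libraries set the size of the miR-132-3p difference. Without detached replicate 2 its log2 fold change was 1.77 (SE 1.16), and without attached replicate 3 it was 3.60 (SE 1.01). Without attached replicate 2 it was 2.19 (SE 0.71). When a detached library is left out, the other is assumed to vary like the attached ones.

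**Figure D2:**
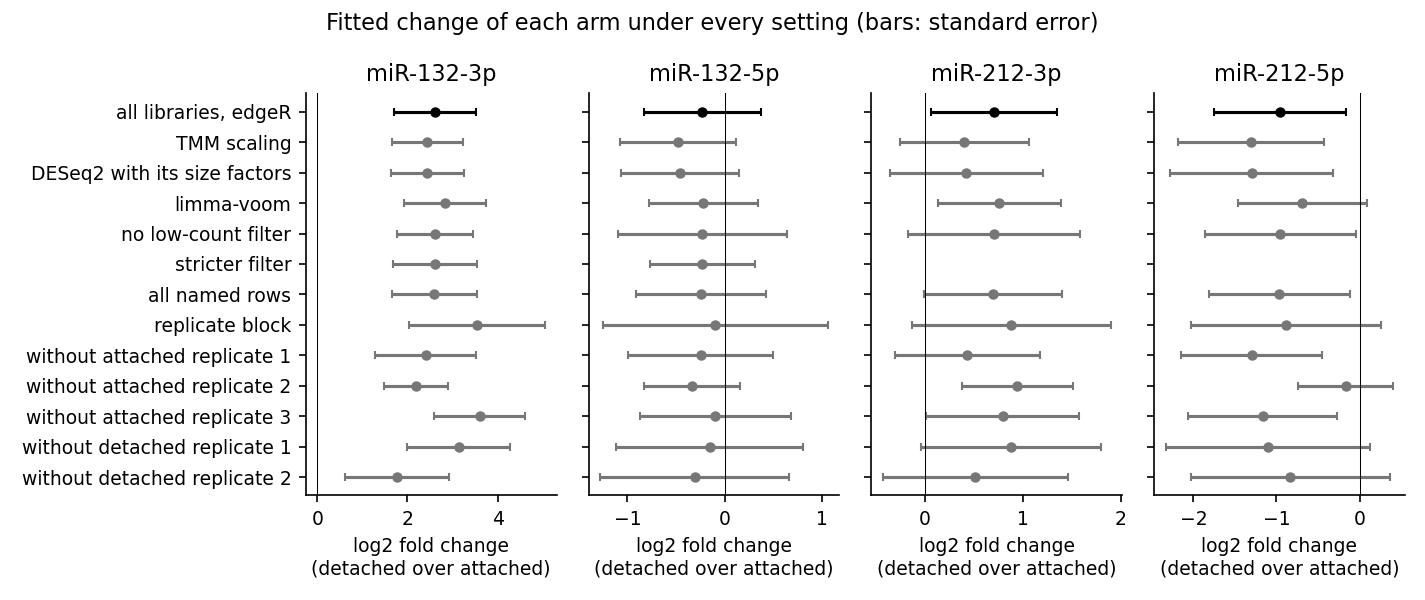
Each panel plots 1 arm, with the log2 fold change (detached over attached) on the horizontal axis and 1 row for each way of fitting. Points are fitted values and bars ± 1 standard error, with the fit of all libraries in black at the top. miR-132-3p lies between 1.77 and 3.60 when single libraries are left out, and the sign of every arm is the same in each row that has a value.

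The share of 3p reads in a hairpin compares 2 arms inside 1 library, so it does not depend on how libraries are scaled. For miR-132 the 3p arm held 73.8% (95% Wilson interval 71.2 to 76.3) of 1169 reads in detached replicate 1 and 86.8% (85.1 to 88.3) of 1719 reads in detached replicate 2. In attached libraries it held 32.0% (27.7 to 36.6) of 419 reads, 20.1% (15.4 to 25.8) of 224 reads and 53.1% (49.1 to 56.9) of 622 reads, in the order of replicates 1, 2 and 3. The 3p arm was thus the larger one in both detached libraries and the smaller one in attached replicates 1 and 2, and in attached replicate 3 the interval included equal arms. Without molecular identifiers, reads are not independent molecules, so these intervals and floors cover only counting error. The mean share was 80.3% ± 9.17 in detached (SD, n = 2) and 35.0% ± 16.7 in attached libraries (SD, n = 3).

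For miR-212 the 3p arm held 74.0% (63.3 to 82.5) and 81.7% (70.1 to 89.4) of 77 and 60 reads in detached replicates 1 and 2. In attached replicates 1, 2 and 3 it held 58.1% (40.8 to 73.6) of 31 reads, 43.9% (32.6 to 55.9) of 66 reads and 64.4% (49.8 to 76.8) of 45 reads. The detached shares lay above the attached ones, as for miR-132, but on few reads, and the intervals of both detached libraries overlapped those of attached replicates 1 and 3. In the detached libraries the 3p shares of the 2 hairpins lay close together, 73.8% beside 74.0% in replicate 1 and 86.8% beside 81.7% in replicate 2.

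**Figure D3:**
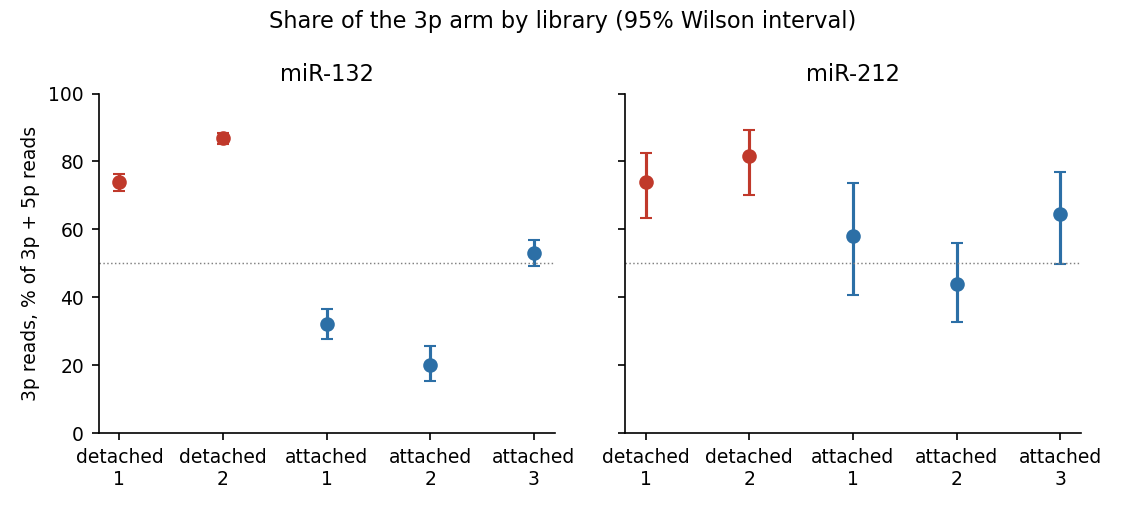
The vertical axis is the share of 3p reads among the 3p and 5p reads of a hairpin, in percent, for miR-132 on the left and miR-212 on the right, with detached libraries in red before attached libraries in blue. Points are single libraries, bars the 95% Wilson interval, and the dotted line marks equal arms. Detached shares are 73.8% and 86.8% for miR-132 and 74.0% and 81.7% for miR-212, above every attached library of the same hairpin.

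Taken over all 5 libraries, the mean log2 ratio of 3p to 5p was 0.26 ± 1.90 for miR-132 (SD, n = 5), with 3 of 5 libraries positive (exact sign-flip permutation test, two-sided, p = 0.812, adjusted over 4 ratios 0.812). For miR-212 it was 0.91 ± 0.94 (SD, n = 5), with 4 of 5 positive (exact sign-flip permutation p = 0.125, adjusted 0.167). The test did not pass 0.05 for either hairpin, and with 5 libraries it cannot give a p below 0.0625. For miR-132 it pools groups of opposite sign, with means of 2.10 in detached and -0.96 in attached libraries. Its p-value therefore does not show that the arms were equal in either group.

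The change in arm ratio was set against all hairpins with both arms tested, a comparison added after the values were seen. The mean log2 ratio of 3p to 5p was 2.10 in detached and -0.96 in attached libraries for miR-132, a difference of 3.07, and 1.80 and 0.32 for miR-212, a difference of 1.48. Over 178 hairpins the median difference was 0.11 and the median size without regard to sign 0.88. miR-132 had the 4th highest difference, below miR-33b (4.73), miR-27a (3.64) and miR-548d (3.34), and miR-212 stood in place 31. Without attached replicate 2, miR-132 was in place 3, with a difference of 2.56. miR-212 was then in place 21, with a difference of 1.15, beside a median size of 0.53. The difference of miR-27a fell to 1.72, in place 13, while miR-33b (4.52) and miR-548d (3.52) stayed above miR-132. Arm ratios that did not overlap between groups, higher in detached, were found for both hairpins of the cluster and for 15.2% of the 178, and ratios lower in detached for 14%. Since miR-132-3p chose the cluster, these ranks describe the libraries and are no test.

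In 47 of the 178 hairpins (26.4%) the 3p arm had a positive and the 5p arm a negative log2 fold change, as in miR-132 and miR-212, and in 42 (23.6%) the reverse. Opposite signs of the arms were therefore as common as equal ones, which 89 hairpins showed.

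**Figure D4:**
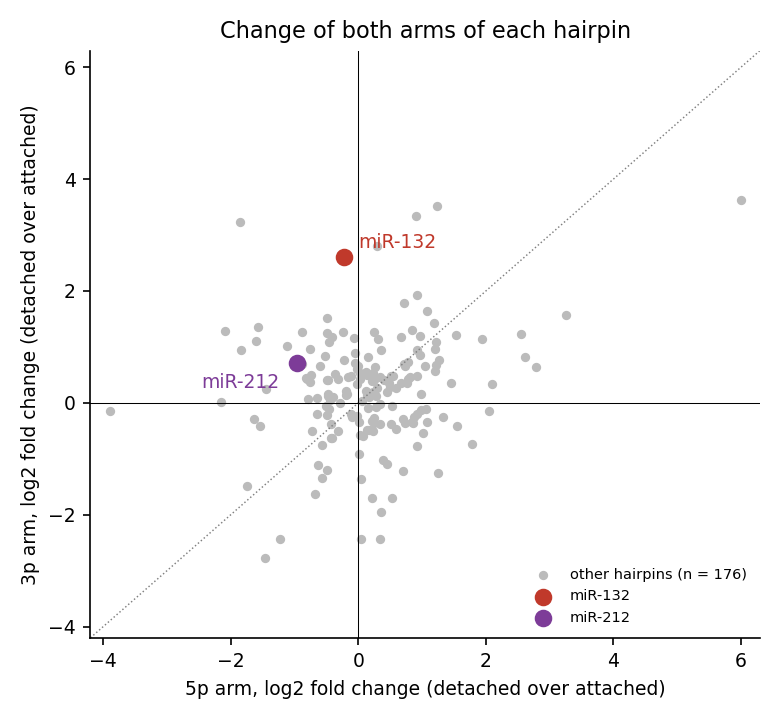
Each point is 1 of 178 hairpins, with the log2 fold change (detached over attached) of its 5p arm on the horizontal axis and of its 3p arm on the vertical axis. The dotted line marks equal change of both arms. miR-132 lies at -0.23 and 2.61 and miR-212 at -0.96 and 0.71, both above the dotted line.

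Within the cluster miR-132 was the more abundant hairpin on both arms in all 5 libraries. miR-132-3p outnumbered miR-212-3p by 15.1 and 30.4 times in detached libraries and by 7.44, 1.55 and 11.4 times in attached libraries. The mean log2 ratio was 3.16 ± 1.60 (SD, n = 5), positive in 5 of 5 libraries (exact sign-flip permutation test, two-sided, p = 0.0625, the smallest it can give, adjusted 0.125). miR-132-5p outnumbered miR-212-5p by 15.3 and 20.6 times in detached libraries and by 21.9, 4.84 and 18.2 times in attached libraries, with a mean log2 ratio of 3.80 ± 0.88 (SD, n = 5), positive in 5 of 5 (exact sign-flip permutation p = 0.0625, adjusted 0.125). Attached replicate 2 had the lowest ratio on both arms. Since the level of miR-132-3p chose the cluster, the p-value of the 3p ratio is given as description only. Mature miRNAs are of nearly equal length, 21 to 23 nt here, so counts were compared without a length correction, but ligation and amplification can favour one sequence over another.

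The seed AACAGUC, carried by both 3p arms, summed to 58.3 and 146 CPM in detached libraries and to 12.5, 8.40 and 34.8 CPM in attached libraries. miR-132-3p made up 93.8% and 96.8% of that sum in detached and 88.2%, 60.8% and 91.9% in attached libraries. All 4 arms together reached 78.9 and 169 CPM in detached and 37.0, 32.9 and 64.6 CPM in attached libraries, with means of 124 ± 63.6 CPM (SD, n = 2) and 44.9 ± 17.2 CPM (SD, n = 3). miR-132-3p took 69.3% and 83.9% of the cluster's reads in detached libraries and 29.8%, 15.5% and 49.5% in attached libraries. Among human miRNAs it ranked 202 and 154 by count in the detached libraries and 325, 363 and 245 in the attached ones, whereas miR-132-5p ranked 282 and 304 in detached and 261, 238 and 262 in attached libraries.

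The miRNAs whose profile over the 5 libraries was most like that of miR-132-3p were miR-197-3p, miR-324-5p, miR-33b-3p, miR-766-3p and miR-224-3p. Likeness was the root mean square difference of log2(CPM + 1) after centring each miRNA on its own mean, and was 0.30, 0.32, 0.35, 0.38 and 0.43 for these 5, against a median of 1.46 over the tested miRNAs. miR-33b-3p, from an intron of SREBF1, had 13.2 and 59.5 CPM in detached libraries and 2.06, 1.59 and 7.94 CPM in attached libraries. miR-324-5p had 138 and 347 CPM in detached libraries and 26.1, 21.5 and 123 CPM in attached libraries. Having been picked for this likeness, all 5 were highest in detached replicate 2 and, like miR-132-3p, lowest in attached replicate 2. The hairpins of these miRNAs did not share 1 direction of arm ratio: the difference in log2 ratio of 3p to 5p was 4.73 for miR-33b and 2.00 for miR-766, both higher in every detached library, and -2.02 for miR-324, lower in every detached library. For miR-224 it was 2.77, or 1.74 without attached replicate 2, and the groups overlapped. Of the 5 miRNAs nearest to miR-132-3p, 3 were also among the nearest 5 without attached replicate 2. miR-212-3p, miR-132-5p and miR-212-5p came further down that order, in positions 290, 453 and 615, with differences of 1.39, 1.62 and 1.99. Without attached replicate 2 the same 3 arms were in positions 80, 497 and 411, with differences of 0.86, 1.38 and 1.31 against a median of 1.27.

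The profiles nearest to miR-212-3p were those of miR-6880-3p, miR-1304-5p, miR-1343-5p, miR-3653-5p and miR-4485-3p, with differences of 0.09 to 0.19 against a median of 0.65. Without attached replicate 2, 1 of these 5 was still among the nearest 5. The first 3 of these were about as scarce as miR-212-3p or scarcer, and on the log2(CPM + 1) scale scarce miRNAs are pressed together. miR-1304-5p, for example, had 3.80 and 5.98 CPM in detached libraries and 1.48, 3.52 and 3.88 CPM in attached libraries. The nearest, miR-6880-3p, had 0.95 and 1.23 CPM in detached libraries and 0.08, 0.68 and 0.39 CPM in attached libraries. Its value in attached replicate 1 lay below the floor of 3 counts, 0.247 CPM in that library.

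**Figure D5:**
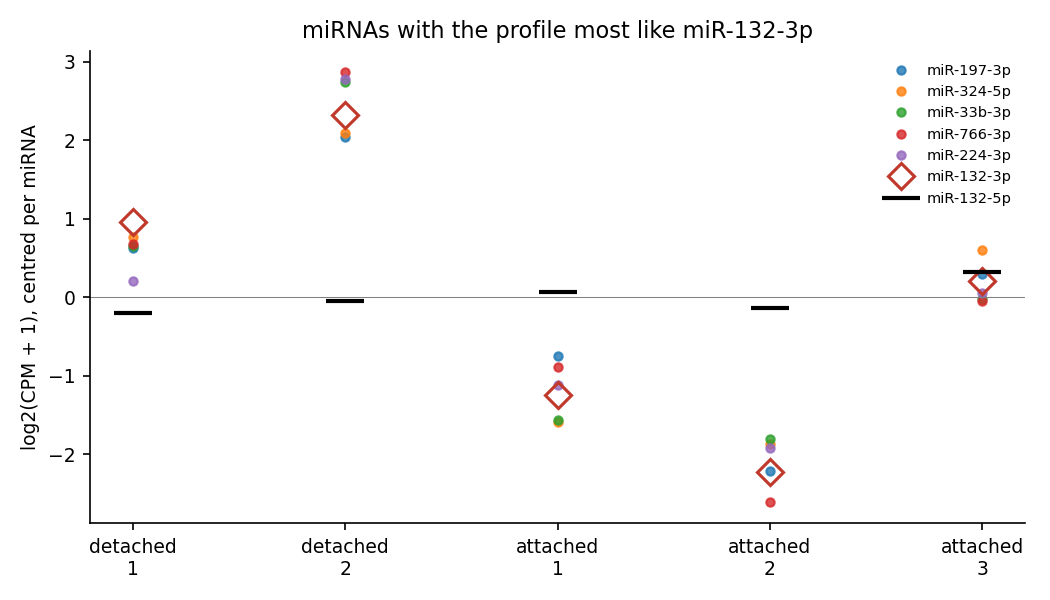
The vertical axis is log2(CPM + 1) centred on each miRNA's mean over the 5 libraries, and the horizontal axis lists the libraries, detached first. Open diamonds are miR-132-3p, dots the 5 miRNAs with the most similar values and black dashes miR-132-5p. The dots and diamonds are highest in detached replicate 2 and lowest in attached replicate 2, while the dashes stay near 0.

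On chromosome 17, miR-22 was the only other miRNA with a tested row within 1000000 bases of MIR132. Its hairpin lies at chr17:1713903-1713987 on the same strand, 335920 bases away in the host gene MIR22HG. miR-22-3p had 2419 and 7250 CPM in detached libraries and 8495, 5009 and 4281 CPM in attached libraries. miR-22-5p had 360 and 421 CPM in detached libraries and 401, 53.2 and 263 CPM in attached libraries. Both overlapped between groups, with log2 fold changes of -0.29 (SE 0.63) and 0.71 (SE 0.84). MIR6776 and MIR1253, also in that window, had at most 2 counts in any library.

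Of 7 miRNAs described in other systems as acting on CREB or being acted on by it, 6 were tested, and edgeR called 0 higher and 0 lower at adjusted p under 0.05. Their log2 fold changes were positive for 4 and negative for 2, with a median of 0.05 against 0.20 over all tested miRNAs. With TMM factors or DESeq2's size factors, 2 were positive and 4 negative. miR-34b-5p, which is induced by p53 and was described as a repressor of CREB1 mRNA, had 102 and 102 CPM in detached libraries and 62.0, 9.54 and 61.0 CPM in attached libraries. miR-134-5p, which limits dendritic spine size in neurons, had lower values in both detached libraries, with 3.93 and 3.42 CPM in detached libraries and 5.92, 12.3 and 7.17 CPM in attached libraries. miR-9-5p, abundant in neural progenitors, overlapped, with 9.81 and 3.99 CPM in detached libraries and 5.10, 7.27 and 7.56 CPM in attached libraries.

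Of 10 miRNAs described as induced by the stimulus-dependent factors AP-1, SRF or NF-kB, 8 were tested, with 0 called higher and 0 called lower by edgeR. Of these 3 were positive and 5 negative under each of the 3 scalings. Their median log2 fold change was -0.08, against 0.20 over all tested miRNAs. It was -0.31 against -0.04 with TMM factors, and -0.30 against -0.03 with DESeq2. The positive ones were miR-143-3p, miR-145-5p and miR-1-3p. Only miR-145-5p did not overlap between groups, with 16.9 and 7.69 CPM in detached and 0.91, 0.68 and 0.39 CPM in attached libraries. miR-221-3p and miR-222-3p, both negative, had 52352 and 55278 CPM in attached replicate 2, and at most 7888 and 10733 CPM elsewhere. miR-146a-5p, an NF-kB target, had 25.6 and 6.93 CPM in detached libraries and 4.85, 174 and 57.1 CPM in attached libraries, and overlapped between groups. miR-155-5p, a further NF-kB target, and miR-133a-3p, a muscle miRNA, had 0 counts in all 5 libraries.

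Since miR-132 is also made by neurons, endothelium and stroma, miRNAs that mark other cell types are given beside the cluster. Of 5 neuronal markers 5 had counts, and they summed to 1133 to 1317 CPM in detached and 1338 to 1518 CPM in attached libraries, nearly all of it miR-138-5p and miR-128-3p, which many cell types make. miR-124-3p, the defining neuronal miRNA, had at most 0.253 CPM in detached and 0.741 CPM in attached libraries. The endothelial pair miR-126-3p and miR-126-5p summed to 23.1 to 34.2 CPM in detached and 9.65 to 34.6 CPM in attached libraries. Of 4 mesenchymal markers 4 had counts, with sums of 17.8 to 56.8 CPM in detached and 3.68 to 11.5 CPM in attached libraries, carried by miR-143-3p and miR-145-5p, while miR-199a-5p reached at most 0.854 CPM and miR-214-3p at most 0.194 CPM. Of 5 blood markers 5 had counts, with sums of 18.6 to 18.8 CPM in detached and 1.36 to 16.4 CPM in attached libraries. Of 3 muscle markers, miR-1-3p and miR-206 had counts, with sums of 0.0949 to 11.7 CPM in detached and 0 to 1.40 CPM in attached libraries. Without attached replicate 2 the attached sums were 26.0 to 34.6 CPM for the endothelial, 3.68 to 4.20 CPM for the mesenchymal and 11.9 to 16.4 CPM for the blood markers. The mesenchymal and blood sums were thus higher in both detached libraries, as miR-132-3p was. Singly, only miR-145-5p, miR-451a and miR-144-3p lay higher in both detached libraries, and the other mesenchymal and blood markers overlapped between groups. A part of such cells in the miR-132-3p difference was not tested. In bulk libraries, fewer cells of a type and less RNA per cell cannot be told apart.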

How the data were processed

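Raw counts per named small RNA, not normalized, were deposited for each of 5 libraries, with 49965 named rows and 5 summary rows that total 0. Genome build hg38 and DESeq2 are named in the submitters' processing notes. No source used here gives the aligner, the counter or the handling of multiply matching reads. Per the file headers, the comparison table that the authors deposited holds log2 fold changes, their standard errors, and raw and adjusted p-values. Its 5 columns of values per library were not used. Rows named p-hsa-miR, whose numbering the sources do not explain, were not used, and 13 rows for the members' namesakes in other species held 0 counts.

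The members and lists were chosen with earlier results of these data known. Human (hsa-) rows were fitted together with edgeR 4.0.16 in R 4.3.3 (quasi-likelihood F test, two-sided, Benjamini-Hochberg), library size being their total, without further factors. filterByExpr kept its defaults (min.count 10, min.total.count 15). The fit was also run on simulated counts, drawn with the same variation for every miRNA and with less of it than in these libraries. That run therefore does not show how often the fit finds changes here. Standard errors were derived from the log2 fold change and the square root of F. Ratios used a pseudocount of 0.5 counts, and the likeness of profiles 1 CPM. Named were the 4 arms, the 5 nearest profiles of each 3p arm, miRNAs within 1000000 bases and the listed miRNAs. Alternatives were TMM factors, DESeq2 1.42.0, limma-voom (limma 3.58.1), no filter, a filter of 10 CPM in 2 libraries, all named rows, a replicate block, other pseudocounts and leaving out each library. The arm ratio's difference between groups was added after seeing the data. Gene positions are from GENCODE 29 and RefSeq (GRCh38.p14).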

Additional observations from a re-analysis of the deposited data

How the results depend on the processing

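The 4 arms kept the sign of their log2 fold changes under every alternative that gave a value. The stricter filter removed both arms of miR-212. Leaving out each library in turn gave 1.77 to 3.60 for miR-132-3p, -0.34 to -0.10 for miR-132-5p, 0.43 to 0.95 for miR-212-3p and -1.30 to -0.17 for miR-212-5p. miR-132-5p was -0.48 with TMM factors and -0.46 with DESeq2, against -0.23. These moves were somewhat larger than its pooled SD between replicates (0.205, log2 scale) but within its SE of 0.60. TMM factors moved the median of all tested miRNAs to -0.04, against 0.20, by their construction. The mean log2 ratio of 3p to 5p of miR-132, 0.26, changed sign without detached replicate 1 (-0.04) and without detached replicate 2 (-0.35), and ranged up to 0.83 as other libraries were left out. That of miR-212 ranged from 0.61 to 1.22, and the log2 ratio of miR-132 to miR-212 from 2.72 to 3.79 for 3p arms and 3.65 to 4.19 for 5p arms. The difference in arm ratio between groups ranged from 2.46 to 3.68 for miR-132 and 1.15 to 1.79 for miR-212. Among all miRNAs, edgeR called 0, DESeq2 12 (12 higher), edgeR without the low-count filter 20 (15 higher and 5 lower) and edgeR with libraries left out 0 to 12, the 12 without attached replicate 2. The cause was not tested. With the replicate number as a block, edgeR called 0 miRNAs and miR-132-3p was 3.54 (SE 1.51). The labels do not say that a number marks a shared batch, so the numbers were not taken as pairs. Deviations of same-numbered libraries from their group means correlated at -0.27 and -0.25 across miRNAs. With 2 detached libraries, the deviations of that group mirror each other, so these correlations cannot decide whether numbers mark pairs. Depth limits miR-212, whose arms had 11 to 57 counts per library.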
